A study of Mus musculus with 11 samples.

Results

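Newly made HA-H3.3 and HA-MacroH2A2 were compared in mouse embryonic stem (ES) cells 3 h after their induction. The comparison rests on 2 of the 11 libraries of the series, 1 for each variant. Both cell lines were KH2 ES cells of strain 129 X C57bl/6, which carry the M2rtTA transactivator at the ROSA26 locus. Each line held an HA-tagged histone cDNA under a tetracycline-responsive promoter, placed beside the Col1a1 locus. HA-Macro stands below for HA-MacroH2A2. Doxycycline at 2 µg/mL was added for 3 h, and tagged chromatin was collected by crosslinked ChIP with the HA antibody Abcam ab9110 and sequenced. The same lines after 6 h of doxycycline and the HA-Macro line without doxycycline (no Dox) served for reference. The no Dox cells carry the HA-Macro cassette, so expression of the tag without doxycycline and antibody background cannot be told apart in that library. The cells cycled asynchronously and feeder fibroblasts had been depleted by pre-plating. With 1 library per condition no test between conditions was possible. The intervals in brackets are 95% exact (Clopper-Pearson) intervals and cover counting error only.

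H3.3 is the histone H3 form that is deposited outside of DNA replication, by the chaperone HIRA at active promoters and gene bodies and by DAXX with ATRX at telomeres and other heterochromatin. MacroH2A2 is an H2A variant that carries a large non-histone macro domain and is best known from the inactive X chromosome and other silent chromatin. Tag induced for a short time marks places where new histone enters chromatin. A density at a single early time mixes the rate at which a variant is placed with how much of it the site comes to hold.

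Read placement differed between the libraries in sequence that occurs more than once in the genome. In the 52738 windows of 1 kb without any 32-base word unique in the mm9 genome, the HA-H3.3 library held 724 reads and the HA-Macro library 104569, after both were thinned to 6280929 reads on the autosomes. Relative to the mean window these were densities of 0.00523 and 0.756. The 6 h libraries showed the same split, with 0.00552 for HA-H3.3 and 0.737 for HA-Macro, and the no Dox library stood at 0.821. Multi-copy sequence thus separated the HA-H3.3 from the HA-Macro libraries at both times. The tagged line and the processing of its files cannot be told apart here, and the HA-H3.3 line had no library without doxycycline among those used. In windows with 95% or more unique words the densities were 1.18 for HA-H3.3 and 1.05 for HA-Macro. Comparisons are therefore given in all sequence and again in these unique windows alone, which were thinned to 4246486 reads. The intervals also differed in length, with 400 bp in the HA-H3.3 libraries and 150 bp in the HA-Macro libraries, so that offsets smaller than an interval have no meaning here.

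**Figure D1:**
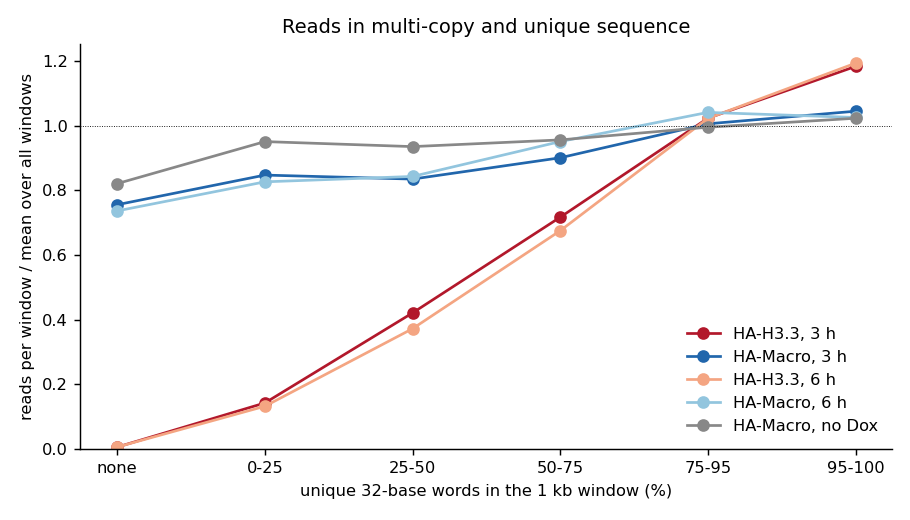
Reads per 1 kb window relative to the mean over all windows (y axis), for windows grouped by the percentage of their 32-base words that occur once in the genome (x axis), in 5 libraries of ES cells (lines). The HA-H3.3 libraries fall to about 0 in windows without unique words, while the 3 HA-Macro libraries stay between 0.737 and 0.821.

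Several sequences below illustrate what was compared. They are the 200 bases just upstream of the start site of 3 genes, with CG dinucleotides in capitals, and the central 200 bases of 2 distal windows, all from the mm9 reference. Abcd3 and Chmp2a were among the promoters with the highest HA-H3.3 share, and B4galnt4 among those with the most HA-Macro reads. The distal windows are among those with the most reads in the 6 h library of each variant.
Abcd3 (chr3:121518221-121518420, minus strand): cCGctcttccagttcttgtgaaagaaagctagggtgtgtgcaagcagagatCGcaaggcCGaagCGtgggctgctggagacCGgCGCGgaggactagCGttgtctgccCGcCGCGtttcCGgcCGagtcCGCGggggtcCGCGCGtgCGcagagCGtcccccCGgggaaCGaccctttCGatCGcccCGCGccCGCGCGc
Chmp2a (chr7:13620127-13620326, minus strand): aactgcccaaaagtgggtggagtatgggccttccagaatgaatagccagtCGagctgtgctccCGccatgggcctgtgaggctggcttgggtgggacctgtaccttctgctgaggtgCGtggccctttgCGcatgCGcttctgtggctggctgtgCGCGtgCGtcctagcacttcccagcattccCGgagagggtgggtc
B4galnt4 (chr7:148246973-148247172, plus strand): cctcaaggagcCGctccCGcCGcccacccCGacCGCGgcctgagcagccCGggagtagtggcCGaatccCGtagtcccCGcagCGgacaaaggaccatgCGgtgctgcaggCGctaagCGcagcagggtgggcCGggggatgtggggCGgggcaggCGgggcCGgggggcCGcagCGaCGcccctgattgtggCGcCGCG
HA-H3.3 distal window near Kctd15 (chr7:35355401-35355600, plus strand): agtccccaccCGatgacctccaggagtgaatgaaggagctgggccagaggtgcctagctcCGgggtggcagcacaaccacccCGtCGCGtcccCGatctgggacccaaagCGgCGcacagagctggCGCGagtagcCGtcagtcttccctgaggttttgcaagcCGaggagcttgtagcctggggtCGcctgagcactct
HA-Macro distal window near 4930569F06Rik (chr5:117235401-117235600, plus strand): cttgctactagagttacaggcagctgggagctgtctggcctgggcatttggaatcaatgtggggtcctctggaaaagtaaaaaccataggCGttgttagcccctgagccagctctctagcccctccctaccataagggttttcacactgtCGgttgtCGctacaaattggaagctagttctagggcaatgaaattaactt
The Abcd3 stretch holds 29 CG and the Chmp2a stretch 9, against 24 for B4galnt4. Over the 20759 protein-coding promoters compared, the median was 7 CG, with quartiles of 2 and 15. B4galnt4 was chosen by its HA-Macro reads, with 22 HA-H3.3 and 31 HA-Macro reads. Against all HA-Macro reads, scaled to equal totals, its log2 ratio was -0.21 (-0.98 to 0.50), an interval that held 0. These 3 promoters thus cannot show whether the number of CG differs between the variants. Promoters with 2-fold more HA-H3.3 held a median of 15 CG in this stretch and those with 2-fold more HA-Macro 14. The distal window near Kctd15 held 13 CG in its centre and the window near 4930569F06Rik 3.

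In all sequence the promoters of pluripotency genes were denser in both libraries than those of fibroblast genes, which mark the feeder cells. Promoters of 25 pluripotency genes held 283 reads in the HA-H3.3 library and 261 in the HA-Macro library, with 97 in the no Dox library. Promoters of 25 fibroblast genes held 194 and 125 reads, with 101 in the no Dox library. The pluripotency promoters stood 3.63-fold and 3.37-fold above the mean of all sequence in the HA-H3.3 and HA-Macro libraries, and the fibroblast promoters 2.49-fold and 1.61-fold. In unique sequence the pluripotency promoters held 214 and 237 reads and the fibroblast promoters 186 and 119, with 86 and 107 in the no Dox library. The lists were thus close in HA-H3.3 there. At Pou5f1, the gene for the pluripotency factor Oct4, the promoter held 16 and 15 reads. At Sox2 it held 14 in both libraries, and at Nanog 11 and 12. The fibroblast list stood nearer to the pluripotency list in HA-H3.3 than in HA-Macro, and the part of feeder cells in the results was not tested. Presence of the transgenes could not be read from the exons of the tagged histones. H2afy2, the gene for MacroH2A2, had 13 exon reads in the HA-Macro library, 15 in the HA-H3.3 library and 11 in the no Dox library. H3f3a and H3f3b, which both encode H3.3, had 27 and 20 exon reads in the HA-H3.3 library and 28 and 34 in the HA-Macro library. In unique sequence H2afy2 had 3 exon reads in HA-Macro and 6 in HA-H3.3, H3f3a had 12 and 18 and H3f3b had 8 and 2. The exons of a variant's own gene were thus not higher in its own library, except for H3f3a in unique sequence.

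At 3 h both variants were most dense at promoters and HA-H3.3 was the denser variant there. Here and below a density is relative to the total of its own library. It compares shares of reads and not amounts of histone. Promoters (600 bp to each side of a protein-coding start site) held 2.99 times the mean read density in the HA-H3.3 library and 2.11 times in the HA-Macro library, with 1.32 times without doxycycline. The log2 ratio of HA-H3.3 to HA-Macro reads was 0.51 (0.50 to 0.52) in all sequence and 0.42 (0.40 to 0.43) in unique sequence. Promoters of lincRNA genes gave 0.46 (0.41 to 0.51) and 0.40 (0.34 to 0.46). Sequence from 600 bp to 5 kb upstream of genes gave 0.14 (0.14 to 0.15) and 0.17 (0.15 to 0.18). The excess of HA-H3.3 thus held at coding and noncoding starts and shrank with distance upstream.

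Gene bodies and distal sequence differed less, and their signs were opposite. Gene bodies held 1.13 times the mean density in the HA-H3.3 library and 1.20 times in the HA-Macro library, a log2 ratio of -0.08 (-0.08 to -0.07) in all sequence and -0.15 (-0.15 to -0.15) in unique sequence. Exons of gene bodies were denser than introns in both libraries, at 1.75 and 1.89 times the mean against 1.10 and 1.17 times. The exon log2 ratio was -0.11 (-0.11 to -0.10) in all sequence and -0.23 (-0.24 to -0.22) in unique sequence. HA-Macro was therefore the denser variant inside genes, and most in exons. Distal windows, 1 kb windows at least 10 kb from any annotated gene, held 0.806 and 0.779 times the mean density. Their log2 ratio was 0.06 (0.06 to 0.06) in all sequence and 0.13 (0.13 to 0.14) in unique sequence, so distal sequence was slightly denser in HA-H3.3. Gene ends gave 0.00 (-0.01 to 0.01) in all sequence and -0.08 (-0.10 to -0.07) in unique sequence, which leaves them with no side that held in both. These differences, other than at promoters, were small enough to move with the choice of total, and the part of read placement in them was tested only by the setting of unique sequence.

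**Figure D2:**
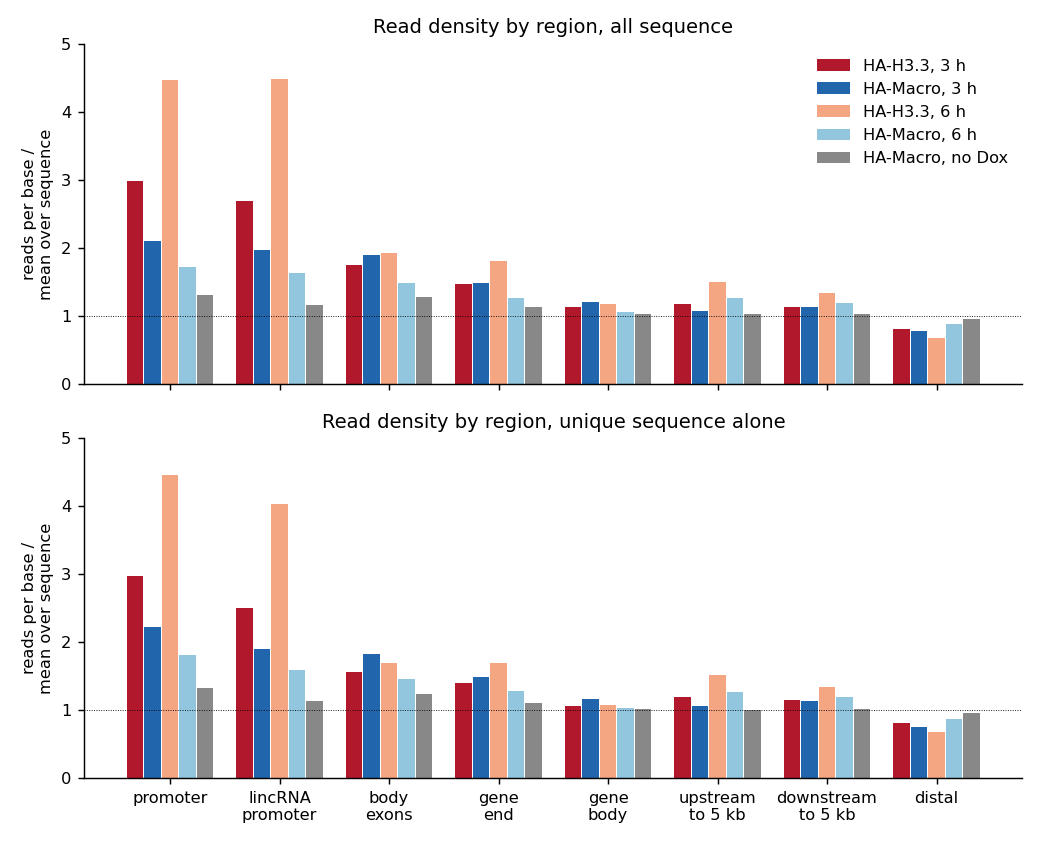
Reads per base relative to the mean over the sequence compared (y axis), by class of region (x axis), for 5 ES libraries (bars), in all sequence (top) and in unique sequence alone (bottom). Promoters reach 2.99 in HA-H3.3 and 2.11 in HA-Macro at 3 h, and distal windows lie below 1 in all 5 libraries.

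The difference at promoters was spread over many genes. Of 7209 promoters with 20 or more reads in both libraries together, 2256 (31.3%) had 2-fold or more HA-H3.3 and 128 (1.78%) had 2-fold or more HA-Macro, after 1 read was added to each count. In unique sequence these were 1538 of 6552 (23.5%) and 187 (2.85%). Of the HA-H3.3 sets, 1169 promoters were in both, 51.8% of the former and 76.0% of the latter. Of the HA-Macro sets, 49 were in both, 38.3% of the former and 26.2% of the latter. On either side of an equal count, 5615 of the 7209 promoters (77.9%) had more HA-H3.3 reads and 1289 more HA-Macro reads, with a median log2 ratio of 0.58 and quartiles of 0.12 and 1.10. In unique sequence 70.5% of the promoters counted had more HA-H3.3 reads. Over all 20759 promoters, those with few reads included, the shares were 62.2% and 50.7%. The promoters counted held a median of 16 HA-H3.3 and 11 HA-Macro reads in all sequence and all promoters 8 and 6, so single promoters were poorly resolved.

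At gene ends and in bodies a smaller share had 2-fold more HA-H3.3 than at promoters, and a larger share had 2-fold more HA-Macro. Depth was unlike, with medians of 16 HA-H3.3 and 11 HA-Macro reads at the promoters counted in all sequence. Gene ends had 14 and 11 and bodies 85 and 92. Counting error gives more 2-fold calls at low depth, so the shares of bodies and promoters are not like for like. Of 1642 gene ends with 20 or more reads, 327 (19.9%) had 2-fold or more HA-H3.3 and 76 (4.63%) 2-fold or more HA-Macro. In unique sequence these were 188 (13.7%) and 110 (7.99%) of 1377. Of 14752 gene bodies, 179 (1.21%) had 2-fold or more HA-H3.3 and 512 (3.47%) 2-fold or more HA-Macro. Of these 512 bodies, 269 were less than 50% unique, and in unique sequence the counts were 126 (0.932%) and 454 (3.36%) of 13523. Of the HA-Macro sets, 93 bodies were in both, 18.2% of the former and 20.5% of the latter, where 3.47% and 3.36% of all bodies counted were in either set. The 2 settings share reads of the same libraries, so an overlap above these shares is built in. The same holds for the overlap of the promoter sets. Among the 6081 genes in which both promoter and body were counted, 3109 (51.1%) had more HA-H3.3 at the promoter and more HA-Macro in the body, and 251 (4.13%) had the reverse. In unique sequence these were 2744 (50.4%) and 260 (4.77%) of 5448. More HA-H3.3 at both was found in 1605 genes and more HA-Macro at both in 780, or 1047 and 1050 in unique sequence. Most promoters lay on the HA-H3.3 side and most bodies on the HA-Macro side. These shares alone are therefore no sign of a pairing within genes, which was not tested. The promoter and body ratios of a gene were only weakly related, with Pearson's r of 0.106 and Spearman's rho of 0.112 across these genes, which share libraries and are not independent.

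Around the start site the variants differed in shape. HA-H3.3 reads formed a broad rise on both sides, with 56.6% of the reads within 600 bp lying downstream. HA-Macro reads lay more to the downstream side, at 62.5%. Upstream of the start site, the mean over 600 bp stood 1.06 above the flank on the log2 scale for HA-H3.3 and 0.39 for HA-Macro. Downstream the same means were 1.44 and 1.12. The variants were thus further apart upstream of the start site than downstream. The part of the unlike interval lengths in these sides was not tested. From 2 to 4 kb downstream HA-Macro stood 0.26 above the flank and HA-H3.3 0.13, while the no Dox library stood 0.04 above it. In unique sequence the heights of all 5 libraries were larger, the no Dox library included. The means over 600 bp were then 1.49 and 0.87 upstream and 1.94 and 1.70 downstream for HA-H3.3 and HA-Macro. From 2 to 4 kb downstream they were 0.32 and 0.48, with 0.27 in the no Dox library, and the downstream shares were 57.8% and 64.0%. The order of the variants was thus the same in both settings. At the start site itself the bins stood at 1.38 and 0.51 in all sequence and at 1.86 and 1.07 in unique sequence, but the longer HA-H3.3 intervals smooth features of this width. The no Dox library was also asymmetric, with 55.7% of its reads downstream. At gene ends both variants were nearly flat, with means of 0.15 and 0.15 over 600 bp to each side in all sequence and 0.27 and 0.30 in unique sequence, where the no Dox library had 0.26, and all 5 libraries dipped at the end itself.

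**Figure D3:**
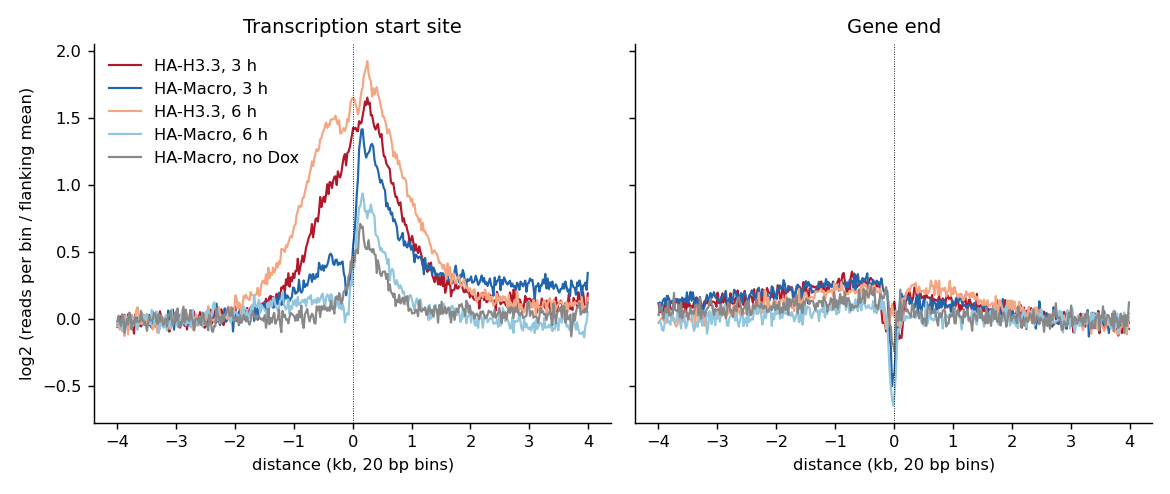
Mean reads per 20 bp bin over the mean of the flank 2 to 4 kb upstream of start sites or downstream of gene ends, on the log2 scale (y axis), by distance from the start site (left) or gene end (right) in kb with negative values upstream (x axis), in 5 ES libraries (lines). HA-H3.3 at 3 h is raised on both sides of the start site, while HA-Macro at 3 h is raised mainly downstream, where 62.5% of its reads within 600 bp lie.

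The log2 ratio of HA-H3.3 to HA-Macro was smallest at promoters of low CpG content. High, intermediate and low CpG promoters numbered 7349, 5075 and 8335. Their log2 ratios were 0.59 (0.58 to 0.61), 0.56 (0.54 to 0.58) and 0.26 (0.24 to 0.28) in all sequence. In unique sequence they were 0.43 (0.42 to 0.45), 0.46 (0.43 to 0.48) and 0.30 (0.27 to 0.33). The order of the high and intermediate classes turned with the setting. Both variants followed CpG content, since the enrichment of high, intermediate and low CpG promoters was 4.83, 3.19 and 1.39 for HA-H3.3 and 3.22, 2.18 and 1.16 for HA-Macro. The no Dox library had 1.60, 1.29 and 1.10, so a part of the order was present without doxycycline. In all sequence the log2 ratios to the no Dox library were 0.33 for HA-H3.3 and 0.07 for HA-Macro at low CpG promoters. At high CpG promoters they were 1.60 and 1.00. The small ratio of the variants at low CpG promoters can therefore not be told apart from background.

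Longer genes had a larger excess of HA-H3.3 at their promoters. The log2 ratio rose from 0.31 (0.29 to 0.33) in genes under 5 kb to 0.54 (0.52 to 0.56) at 20 to 50 kb and 0.73 (0.70 to 0.76) in genes over 100 kb. In unique sequence it was 0.35 (0.32 to 0.37), 0.39 (0.37 to 0.41) and 0.58 (0.55 to 0.60). The bodies of these length classes gave -0.02, -0.16 and -0.02 in all sequence and -0.05, -0.23 and -0.09 in unique sequence. The body deficit of HA-H3.3 was thus deeper in genes of 20 to 50 kb than at either end of the range.

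Genes were also ranked by the sum of promoter reads in the 6 h libraries, as a description. This sum consists mostly of HA-H3.3 reads (274864 against 105813 of HA-Macro), so that a rank on it is largely a rank by HA-H3.3, and a rise of the 3 h promoter ratio over the classes is in part built in. Over the 5 classes, from the fewest to the most reads, the 3 h log2 ratio at promoters was -0.08 (-0.12 to -0.04), 0.17, 0.35, 0.50 and 0.86 (0.84 to 0.87). At the bodies of the same genes it was -0.02, 0.05, -0.02, -0.13 and -0.19 (-0.20 to -0.19). In unique sequence the promoter values were 0.19 (0.09 to 0.28), 0.14, 0.20, 0.33 and 0.66 (0.65 to 0.68), and the body values -0.08, 0.00, -0.06, -0.20 and -0.28. The class with the most reads at 6 h therefore had more HA-H3.3 at the promoter at 3 h and more HA-Macro in the body.

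Individual promoters at the HA-H3.3 end came from genes of unlike function. Chmp2a, which encodes a subunit of the membrane-remodelling ESCRT machinery, had 66 HA-H3.3 and 9 HA-Macro reads, with 3 in the no Dox library. It also held the most HA-H3.3 reads of all promoters. Mbd4, a DNA glycosylase gene of base excision repair, had 44 and 3 reads, and its neighbour Ift122, which starts 99 bp away and shares the window, had 44 and 4. Abcd3, a peroxisomal transporter gene, had 39 and 4 reads. Mdk, the gene for the growth factor midkine, had 42 and 6. H2afz, which encodes the histone variant H2A.Z, had 51 and 9. In all sequence each of these had more HA-H3.3 than HA-Macro at 6 h too, where Chmp2a had 85 and 11 reads, Mbd4 61 and 5, Abcd3 54 and 6, Mdk 42 and 4 and H2afz 35 and 9. All but H2afz were chosen by their ratio after random thinning of the HA-Macro library, which can widen the extremes, and H2afz by its HA-H3.3 reads. Against all HA-Macro reads, scaled to equal totals, the log2 ratio was 2.40 (1.77 to 3.05) for Chmp2a, 3.23 (2.28 to 4.28) for Mbd4, 2.31 (1.50 to 3.17) for Abcd3, 2.16 (1.40 to 2.95) for Mdk and 2.63 (1.87 to 3.44) for H2afz. In unique sequence the thinned reads were 66 and 13 for Chmp2a, 44 and 6 for Mbd4, 39 and 11 for Abcd3 and 42 and 9 for Mdk, which reuse the HA-H3.3 reads that chose these genes and are a description only. For H2afz only 3 and 0 reads were left, so most of its reads lie outside of the unique windows.

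Promoters at the HA-Macro end differed less. Fcgr3, which encodes an Fc receptor of myeloid cells, had 13 HA-H3.3 and 44 HA-Macro reads, but its window was only 11.8% unique and 21 reads fell there without doxycycline. Mocs3 and Dpm1, the genes for a molybdenum cofactor enzyme and a mannosyltransferase subunit, start 31 bp apart and nearly share a window, with 16 and 32 reads at Mocs3 and 16 and 31 at Dpm1. Foxp4, a forkhead factor gene, had 15 and 29 reads. Wbp7, a histone methyltransferase gene, had 13 and 28 reads at 3 h but 26 and 10 at 6 h. Actb, which encodes beta-actin, had 20 and 32 reads at 3 h and 21 and 17 at 6 h, with 2 without doxycycline. Against all HA-Macro reads the log2 ratio was -1.72 (-2.67 to -0.88) for Fcgr3, -1.06 (-1.93 to -0.28) for Mocs3 and Dpm1 and -0.85 (-1.76 to -0.03) for Foxp4. It was -0.78 (-1.78 to 0.11) for Wbp7 and -0.48 (-1.27 to 0.26) for Actb. The last pair thus lay within counting error of equality. In unique sequence Foxp4 did too, with 15 and 24 reads and a ratio of -0.68 (-1.71 to 0.31), Fcgr3 had 0 reads in both libraries, and Mocs3 and Dpm1 had 16 and 42 reads with a ratio of -1.39 (-2.32 to -0.53). Foxp4, Wbp7 and Actb had more HA-H3.3 than HA-Macro reads at 6 h, where Foxp4 had 29 and 13, whereas Fcgr3 had 19 and 54 and Mocs3 11 and 19.

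The 8 gene bodies with the lowest ratio in all sequence lay in multi-copy sequence. All were predicted genes of multi-copy clusters whose bodies were at most 0.514% unique. Gm3358 had 0 HA-H3.3 and 519 HA-Macro reads, with 591 in the no Dox library, and Gm3002 had 2 and 590 reads with 666. Over the 260 gene bodies that were less than 5% unique, HA-H3.3 had 250 reads, HA-Macro 13096 and the no Dox library 14371. No fold is given for these genes. Among the 8 bodies with the lowest ratio in unique sequence were those of Hmmr, the hyaluronan-mediated motility receptor gene, with 31 and 94 reads, Zkscan1, a zinc finger gene, with 28 and 79, Brd7, a bromodomain gene, with 34 and 94, and Setdb1, a histone H3 methyltransferase gene, with 28 and 75. At 6 h the same bodies had 67 and 41, 67 and 40, 44 and 41, and 51 and 41 reads. All 4 thus had more HA-H3.3 reads by then, Brd7 and Setdb1 only narrowly. In unique sequence so did 69.4% of the 454 bodies with 2-fold or more HA-Macro at 3 h and 52.8% of all 13523 bodies counted. Across the latter the 3 h and 6 h ratios gave Pearson's r of -0.177 and Spearman's rho of -0.277. In all sequence 29.1% of the 512 bodies with 2-fold or more HA-Macro at 3 h had more HA-H3.3 at 6 h. This compares with 58.6% of all 14752 bodies counted, whose ratios gave Pearson's r of 0.408 and Spearman's rho of -0.169. The relation of the 2 times in bodies thus depended on the setting. At the other end, the body of Pvrl4, a cell adhesion gene, had 102 and 44 reads in all sequence and 80 and 37 in unique sequence. The body of Map3k6, a kinase gene, had 109 and 50 reads and 80 and 39.

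Gene families differed at their promoters by how strongly HA-H3.3 led. Immediate early genes, which are induced within minutes by growth factors, gave a log2 ratio of 0.88 (0.62 to 1.14) over 20 promoters in all sequence and 0.66 (0.41 to 0.91) in unique sequence. Of these, 16 had more HA-H3.3 and 2 more HA-Macro reads in all sequence. Of all 20759 promoters 62.2% had more HA-H3.3 and 28.7% more HA-Macro there. Among promoters with 20 or more reads 77.9% had more HA-H3.3, near the 16 of 20. Genes of histone variants and their chaperones gave 0.86 (0.62 to 1.10) and 0.53 (0.29 to 0.78), with 21 of 23 promoters on the HA-H3.3 side in all sequence and 16 in unique sequence, where 50.7% of all promoters had more HA-H3.3. In unique sequence 70.5% of the promoters with 20 or more reads had more HA-H3.3, near the 16 of 23. Daxx, an H3.3 chaperone gene, had 31 HA-H3.3 and 8 HA-Macro reads, while Hira had 26 and 21. Imprinted genes gave 0.79 (0.49 to 1.09) and 0.73 (0.43 to 1.03), and developmental transcription factor genes 0.69 (0.54 to 0.84) and 0.53 (0.38 to 0.68). Each of these 4 lists therefore kept its side in both settings, above the 0.51 and 0.42 of all protein-coding promoters. None of the differences between lists was tested, and the lists were not matched for depth.

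Promoters of genes for basic cell functions had smaller ratios than all protein-coding promoters. Splicing factor genes gave 0.08 (-0.09 to 0.26) in all sequence and -0.08 (-0.27 to 0.11) in unique sequence, proteasome genes 0.20 (-0.01 to 0.40) and -0.14 (-0.36 to 0.09), and respiratory chain genes 0.19 (0.05 to 0.34) and 0.02 (-0.13 to 0.17). Genes of mitochondrial ribosomal proteins gave 0.27 (0.12 to 0.42) and 0.07 (-0.09 to 0.23), and translation initiation genes 0.21 (0.06 to 0.37) and 0.06 (-0.11 to 0.23). Genes of cytosolic ribosomal proteins were lower still, at -0.31 (-0.46 to -0.17) over 70 promoters, with 45 of them on the HA-Macro side, where 28.7% of all promoters lay. In unique sequence they gave -0.18 (-0.40 to 0.04), with 322 and 364 reads left and 21 promoters on the HA-Macro and 16 on the HA-H3.3 side. In all sequence the cytosolic ribosomal protein promoters stood at 3.10 times the mean in HA-H3.3 and 3.88 times in HA-Macro, against 1.40 times without doxycycline. At 6 h they had turned to the HA-H3.3 side, at 1.08 (0.92 to 1.25) in all sequence and 1.03 (0.79 to 1.27) in unique sequence. Pluripotency genes gave 0.12 (-0.13 to 0.36) and -0.15 (-0.42 to 0.13), and Fgf4, a growth factor gene of the early embryo, had 17 and 27 reads. In unique sequence every 3 h interval of these 7 lists held 0, so no difference was detectable at this depth. In all sequence the cytosolic ribosomal protein list lay on the HA-Macro side, and the respiratory chain, mitochondrial ribosomal protein and translation initiation lists on the HA-H3.3 side.

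Olfactory and vomeronasal receptor genes, which are silent outside of sensory neurons, had little of either variant. Olfactory receptor promoters stood at 0.923 and 0.838 times the mean and at 1.15 times without doxycycline, with a log2 ratio of 0.15 (0.08 to 0.22) in all sequence and 0.22 (0.12 to 0.33) in unique sequence. Vomeronasal receptor promoters, at 0.640 and 0.832 times the mean, gave -0.37 (-0.52 to -0.22) in all sequence but 0.11 (-0.22 to 0.44) in unique sequence, where 162 and 150 reads were left, and 109 of their 317 promoters were less than 50% unique. Replication-dependent histone genes, which lie in clusters of near-identical copies, stood at 3.63 and 3.61 times the mean in all sequence and gave 0.02 (-0.14 to 0.19) and 0.86 (0.41 to 1.32) with 116 and 64 reads left. The direction for the vomeronasal receptor and histone genes was therefore not settled. Zinc finger (Zfp) genes, at 3.41 and 2.32 times the mean, gave 0.57 (0.50 to 0.64) and 0.43 (0.36 to 0.51). The 40 Hox gene entries, which cover 39 distinct windows, gave 0.46 (0.19 to 0.73) and 0.37 (0.10 to 0.65) at 2.20 and 1.61 times the mean.

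In gene bodies most families of basic cell functions stood on the HA-Macro side. The bodies of splicing factor genes gave -0.46 (-0.54 to -0.39) in all sequence and -0.58 (-0.67 to -0.49) in unique sequence, with 37 of 40 counted bodies having more HA-Macro reads. Hnrnpu, which encodes an RNA-binding scaffold protein, had 53 and 77 reads in its body. Proteasome genes gave -0.41 (-0.48 to -0.33) and -0.51 (-0.61 to -0.42), with 30 of 34 bodies on the HA-Macro side. Respiratory chain genes gave -0.35 (-0.42 to -0.29) and -0.50 (-0.58 to -0.42), with 46 of 50, and translation initiation genes -0.30 (-0.35 to -0.26) and -0.42 (-0.47 to -0.36), with 47 of 50. Mitochondrial ribosomal protein genes gave -0.33 (-0.39 to -0.26) and -0.42 (-0.50 to -0.34), with 40 of 49. The bodies of cytosolic ribosomal protein genes were less clear, at -0.26 (-0.41 to -0.11) and -0.16 (-0.37 to 0.05), with 11 of 20 on the HA-Macro side. By comparison 54.5% of all 14752 gene bodies had more HA-Macro reads. Genes of histone variants and chaperones, whose promoters had led for HA-H3.3, gave -0.46 (-0.53 to -0.40) and -0.63 (-0.70 to -0.56) in the body. Hira had 283 HA-H3.3 and 463 HA-Macro reads there, and Chd1, a chromatin remodeller gene, 202 and 322. With 2-fold or more HA-Macro there were 3 of 40 splicing factor, 3 of 34 proteasome, 5 of 50 respiratory chain, 4 of 49 mitochondrial ribosomal protein, 0 of 50 translation initiation and 0 of 22 histone variant and chaperone bodies in all sequence, against 3.47% of all bodies. In unique sequence they were 5 of 33, 4 of 28, 12 of 42, 6 of 44, 5 of 46 and 2 of 21, against 3.36%. Most members of these lists thus shifted by less than 2-fold.

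The bodies of developmental transcription factor, collagen and keratin genes had the opposite sign. Developmental transcription factor genes gave 0.30 (0.24 to 0.35) in all sequence and 0.11 (0.04 to 0.17) in unique sequence, with 44 of 55 and 34 of 53 bodies on the HA-H3.3 side, where 43.6% and 37.4% of all bodies counted lay. Genes whose names begin as those of collagens, which include Col4a3bp, a lipid transfer protein gene, gave 0.21 (0.17 to 0.25) and 0.10 (0.06 to 0.14), keratin and keratin-associated protein genes 0.43 (0.28 to 0.58) and 0.18 (0.01 to 0.34), and Hox genes 0.32 (0.19 to 0.46) and 0.07 (-0.06 to 0.21). Clustered protocadherin genes gave 0.06 (-0.04 to 0.16) and 0.04 (-0.09 to 0.17). The intervals of the Hox genes in unique sequence and of the protocadherins in both settings thus held 0. At 6 h the order turned, since splicing factor bodies then gave 0.78 and developmental transcription factor bodies 0.12 in all sequence.

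**Figure D4:**
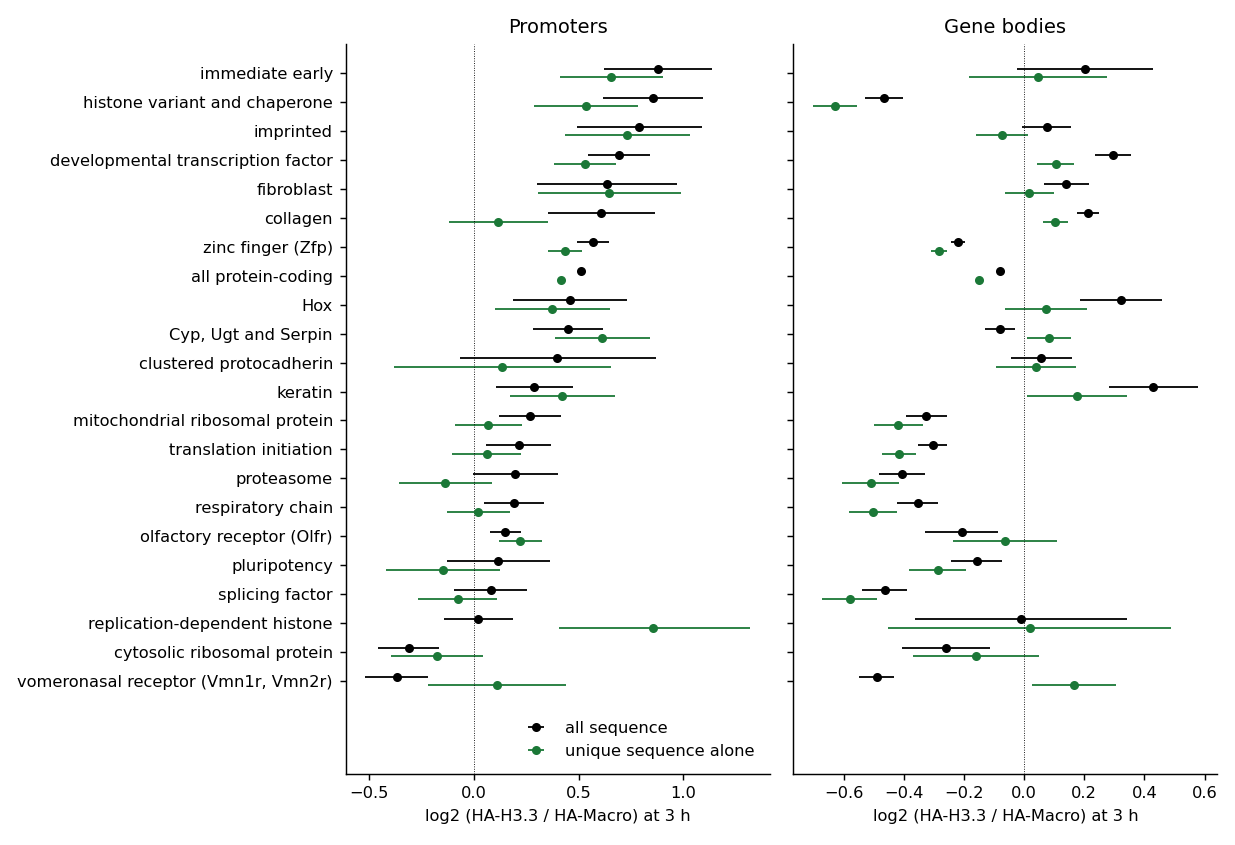
Log2 ratio of HA-H3.3 to HA-Macro reads at 3 h (x axis) for promoters (left) and gene bodies (right) of gene lists (y axis), in all sequence (black) and unique sequence alone (green), with 95% exact counting intervals (bars). Splicing factor genes lie at 0.08 at promoters and -0.46 in bodies in all sequence, and immediate early genes reach 0.88 at promoters.

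Away from genes, the places where HA-H3.3 collected by 6 h were already raised at 3 h in both libraries, and more so in HA-H3.3. Of 1053113 distal windows, 9449 with more than 11 no Dox reads were left out. From the remaining 1043664, the 2000 with the most reads in each 6 h library were taken. Of these, 90 windows (4.50% of each list) were in both, where each list holds 0.192% of all distal windows. In the HA-H3.3 list the 3 h libraries held 23107 HA-H3.3 and 10734 HA-Macro reads, a log2 ratio of 1.11 (1.07 to 1.14), against 5703 without doxycycline. In unique sequence the ratio was 0.90 (0.86 to 0.93). In the HA-Macro list they held 11722 and 11021 reads, a ratio of 0.09 (0.05 to 0.13), against 7601 without doxycycline, and in unique sequence the ratio was 0.09 (0.05 to 0.12). Without the windows in both lists it was 0.03 (-0.01 to 0.07) in all sequence and 0.00 (-0.04 to 0.04) in unique sequence. The windows gathered by HA-Macro at 6 h were therefore not richer in HA-Macro than in HA-H3.3 at 3 h. Mean 3 h reads per window of HA-H3.3 and HA-Macro were 11.6 and 5.37 on the HA-H3.3 list. They were 5.86 and 5.51 on the HA-Macro list and 2.08 and 2.00 over all 1043664 windows. In unique sequence these means were 10.9 and 5.87, 6.01 and 5.66, and 2.52 and 2.29. Both lists were thus above the mean of distal windows in both libraries at 3 h. The lists were drawn from windows with at most 11 no Dox reads, so their lower no Dox counts are in part built in. In distal windows outside of both lists the ratio was 0.05 (0.05 to 0.06), with 2 reads as the median in each library.

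Single windows held few reads. The window near Kctd15, on the HA-H3.3 list, had 42 HA-H3.3 and 8 HA-Macro reads at 3 h, 89 and 4 at 6 h and 5 without doxycycline, and in unique sequence 42 and 5 at 3 h. The window near Rtl1, an imprinted gene, had 34 and 14 reads at 3 h, a log2 ratio of 1.28 (0.34 to 2.29), and 34 and 20 in unique sequence, a ratio of 0.77 (-0.07 to 1.64). The window near Kctd15 was thus apart at 3 h in both settings and that near Rtl1 in all sequence alone. On the HA-Macro list, the window near 4930569F06Rik had 8 and 12 reads at 3 h against 8 and 33 at 6 h, with 8 in both libraries at 3 h in unique sequence. The window near Ube2g2, a ubiquitin-conjugating enzyme gene, had 7 and 12 reads at 3 h against 12 and 34 at 6 h, and 7 and 16 at 3 h in unique sequence. Neither of these was apart at 3 h beyond counting error. Of the 12 windows with the most reads on the HA-Macro list, 4 had an interval below 0 at 3 h in all sequence, those near Capza3, Golga5, Tyw3 and Zc3h12a, and 1 had an interval above 0, that near Hunk. Of the 12 in unique sequence, 1 had an interval below 0, that near Stx16 with 3 and 12 reads, and 0 had one above 0. Windows in the HA-H3.3 list held a median of 15 CpG and those in the HA-Macro list 9, against 6 in all distal windows. The relation to CpG depended on multi-copy sequence, since distal windows with 40 or more CpG gave -0.92 (-0.97 to -0.88) in all sequence and 0.65 (0.58 to 0.72) in unique sequence.

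**Figure D5:**
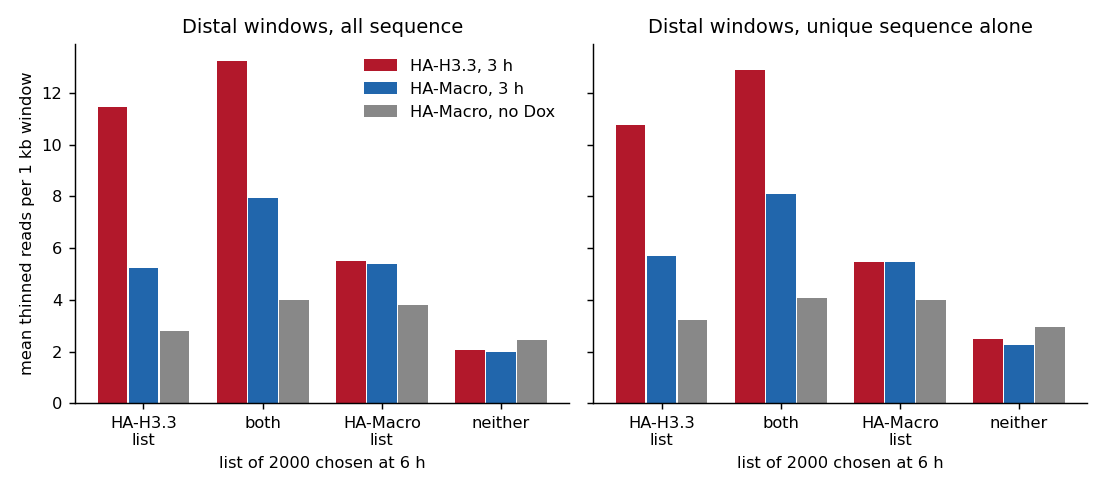
Mean reads per 1 kb distal window at 3 h and without doxycycline (y axis) for windows on the HA-H3.3 list alone, on both lists, on the HA-Macro list alone and on neither (x axis), the lists being the 2000 windows with the most reads in the 6 h libraries. The HA-H3.3 list holds more HA-H3.3 than HA-Macro at 3 h, whereas both are near equal on the HA-Macro list, in all sequence (left) and in unique sequence (right).

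By 6 h the variants had moved apart at promoters. The log2 ratio there was 1.38 (1.37 to 1.39) in all sequence and 1.29 (1.27 to 1.30) in unique sequence. Enrichment of HA-H3.3 had risen from 2.99 to 4.47, while that of HA-Macro was 2.11 at 3 h and 1.73 at 6 h. Gene bodies gave 0.16 in all sequence and 0.05 in unique sequence, and distal windows -0.36 and -0.35. Distal windows thus changed side between the 2 times in both settings, as did bodies. These signs are of shares of library totals and depend on the total chosen. Scaled to gene-free tiles, the 3 h ratio of distal windows was -0.0069, and the 6 h ratios were not scaled that way. Of the 2256 promoters with 2-fold more HA-H3.3 at 3 h, 98.6% had more HA-H3.3 at 6 h, against 95.03% of all 7209. Of the 128 with 2-fold more HA-Macro, 20.3% had more HA-Macro at 6 h, against 3.81% of all. Most of these 128 were thus no longer on the HA-Macro side at 6 h, when nearly all promoters counted lay on the HA-H3.3 side. They stayed on the HA-Macro side more often than the promoters counted as a whole. The 3 h and 6 h log2 ratios of the promoters counted gave Pearson's r of 0.442 in all sequence and 0.445 in unique sequence. Across promoters the log2 read counts at 3 and 6 h gave Pearson's r of 0.836 for HA-H3.3 and 0.513 for HA-Macro. The 2 variants at 3 h gave 0.615, over 20759 promoters that share libraries. In unique sequence these were 0.904, 0.817 and 0.851, where 4005 promoters had no HA-H3.3 reads at 3 h against 1025 in all sequence.

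Over whole autosomes the variants were alike. The log2 ratio in 100 kb tiles summed by autosome lay between -0.07 on chromosome 14 and 0.06 on chromosome 11. Tile counts of the 3 h libraries gave Pearson's r of 0.864 over 23462 tiles, and 0.925 in unique sequence, which are descriptions of tiles that share library depth and base composition. Against the no Dox library HA-H3.3 gave 0.616 and HA-Macro 0.627, or 0.768 and 0.725 in unique sequence. HA-Macro at 3 h against 6 h gave 0.786 and 0.851, and HA-H3.3 gave 0.940 and 0.919. These values thus also rose in unique sequence, except that of HA-H3.3 between its times. The X chromosome took 2.49% of HA-H3.3 and 3.27% of HA-Macro intervals, with 3.70% without doxycycline and 2.24% and 3.14% at 6 h. The low X share thus followed the tagged line at both times, and its part in any autosomal result was not tested.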

How the data were processed

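The libraries were HA ChIP-Seq of tagged histones. Per the labels and the study's methods, the authors aligned reads with Bowtie 1.0 to mm9, with at most 1 mismatch and 1 random location for reads that match several places, and extended them. The deposited tables list the first and last base of each interval (unit other), which are not counts and carry no strand. Their length was 400 bp in the HA-H3.3 and 150 bp in the HA-Macro libraries, while the methods give 150 bp for all. The 5 libraries used held 6488112 to 17710084 intervals. The other libraries of the series were not used here.

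Identical intervals were counted once, and midpoints on chromosomes 1 to 19 were thinned at random to one total. The 1% of 100 kb tiles with the most no Dox reads (266 of 26558) were discarded, which left 20759 of 21418 autosomal protein-coding genes of GENCODE vM1 on NCBIM37, the same assembly as mm9. Gene bodies began and ended 1.5 kb inside the gene. High CpG promoters had an observed to expected ratio of at least 0.6 and a GC content of at least 55%, and low CpG promoters a ratio under 0.4. Ratios per gene used 1 added read. Python 3.11.15, numpy 2.4.6, pandas 2.3.3, scipy 1.17.1 and matplotlib 3.10.9 were used, and the scripts were tested on simulated data. With 1 library per condition there were no p-values, and the intervals cover counting error only.

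The genes named were the 8 promoters (of 40 or more reads) and the 8 gene bodies (of 10 kb and 100 reads or more) with the highest and lowest ratios, the 6 promoters with the most reads in each library, up to 3 members with the most reads in each of 21 lists, and the transgene genes. Any other gene or window in the text was chosen after its values were seen. The comparison, its members and the lists were chosen with earlier results of these data known. The sequence of 1 further promoter is not reported here.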

Additional observations from a re-analysis of the deposited data

How the results depend on the processing

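No paired analysis was possible because each condition had 1 library, and no replicate could be left out. Of 128 alternative values, 88 stayed within the counting interval or within 1.5 times the count, 39 moved outside it and 1 reversed. Unique sequence alone and the moved midpoints were chosen after seeing the data. The log2 ratio at promoters, 0.51 as reported, was 0.56 with repeated intervals counted as often as listed, 0.50 by coverage in place of midpoints, 0.44 with wider windows, 0.46 with the discarded tiles kept, 0.40 over all annotated genes, 0.53 with X and Y, 0.45 when scaled to gene-free tiles, 0.42 in unique sequence and 0.52 with HA-Macro midpoints moved. Gene ends (0.00) gave 0.053 with repeats, -0.028 with tiles kept, -0.066 when scaled to gene-free tiles and -0.082 in unique sequence. Gene bodies (-0.08) gave -0.029 with repeats, -0.081 with tiles kept, -0.072 over all genes, -0.068 with X and Y, -0.14 when scaled to gene-free tiles and -0.15 in unique sequence. Distal windows (0.06) gave 0.11 with repeats, 0.062 with wider margins, 0.052 with tiles kept, 0.051 with X and Y, 0.13 in unique sequence and, reversed, -0.0069 when scaled to gene-free tiles, which sets this class near 0 by construction. The difference in promoter peak height (0.46) was 0.39 with wider windows, 0.39 over all genes and 0.39 in unique sequence. Promoters with 2-fold more HA-H3.3 (2256 of 7209) numbered 3993 of 13730 at a minimum of 10 reads, 266 of 655 at 40 and 1369 of 7209 with 5 added reads. Those with 2-fold more HA-Macro (128) numbered 475, 4 and 44 in the same settings, 244 of 12307 with all distinct intervals scaled by library size in place of thinning and 216 of 11514 with wider windows. Zfp promoters (0.57) gave 0.66 with repeats, 0.46 with wider windows and 0.43 in unique sequence, and the HA-H3.3 distal list (1.11) gave 0.90 in unique sequence. The other causes were not tested. At a median of 8 and 6 reads per promoter, depth limits statements on single genes.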
